A study of Mus musculus with 6 samples.

Results

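The 10 genes studied here, tied to outer radial glia or to folding of the cerebral cortex, were followed by RNA-seq in the dorsal telencephalon of mouse embryos injected with the growth factor FGF2 or with vehicle. They were chosen by gene symbol as Hopx, Fam107a, Trnp1, Ptprz1, Lifr, Il6st, Pdgfd, Flrt1, Flrt2 and Flrt3, and are 10 genes of 37991 rows in the count files. All 10 had enough reads to be tested. The 3 FGF2 embryos, numbered 6, 7 and 8, had received 100 ng of FGF2 into the ventricles of the telencephalon, and the 3 vehicle embryos, numbered 7, 8 and 9, had received phosphate-buffered saline with 0.1% bovine serum albumin by the same route. All 6 were CD1 embryos, an outbred stock, at E13.5, with no allele or transgene named in the labels, and the labels give E13.5 both for the injection and for the age without stating the interval between them. Each library held RNA of 1 embryo, taken from fixed sections of the anterior dorsal telencephalon, so it holds every cell type of the sections, and fewer cells of a type cannot be told apart from less RNA per cell.

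Outer radial glia are neural stem cells that lie away from the ventricle and keep a process reaching the brain surface. They are abundant in animals with folded cortices such as ferrets and humans and scarce in mice, whose cortex is smooth. HOPX, FAM107A, PTPRZ1, LIFR and the growth factor PDGFD are known as genes of these cells, or of radial glia more broadly, in human cortex. Signals of the LIF family pass through LIFR and its partner gp130, the product of Il6st, to the transcription factor STAT3 and are known to sustain human outer radial glia. TRNP1 is a nuclear protein whose reduction in mouse cortex is known to give local folds, and the FLRT proteins are membrane proteins that guide migrating neurons through adhesion and repulsion, and loss of Flrt1 and Flrt3 together is known to give folds in mice.

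Before any comparison, the libraries differed in ways the injections do not name. Their counts summed over all gene rows to 64631136 to 81532334 with FGF2 and 61489462 to 68101511 with vehicle. Reads in overlapping spans can enter such a sum more than once, so it is not a number of reads. Reads on Y-linked genes numbered 10475 to 16232 in the 3 FGF2 embryos and in vehicle 7, against 22 in vehicle 8 and 22 in vehicle 9, so the groups also differ in the sex of the embryos. Vehicle 9 held even counts throughout, whereas 51.0% to 51.9% of the counts above 0 were even in the other libraries. By its tally over the 10 genes FGF2 8 was not unusual. It held the lowest FGF2 value for 5 and the highest for 2, and vehicle 8 held the lowest vehicle value for 5 and the highest for 2. FGF2 8 did stand apart from the other FGF2 embryos in its quality weight in limma's voom, at 0.232 against 0.841 to 1.95 in the other 5 libraries. For the 10 genes and the related lists, calls that differed without FGF2 8 are therefore given both ways.

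Flrt2 rose in the FGF2 embryos, and none of the other 9 genes passed the test in either direction. Of the 10 genes, 1 rose, 0 fell and 9 did not pass an adjusted p of 0.05 in edgeR's quasi-likelihood test, with Benjamini-Hochberg adjustment over 21983 genes. Across all genes tested, 590 rose (2.68%), 209 fell (0.951%) and 799 changed in either direction (3.63%), and a single call does not set the 10 genes apart from the rest. At an unadjusted p under 0.05 the count was 3 of the 10 genes (Flrt2, Flrt1 and Ptprz1), against 19.3% of all genes. For the same 3 genes no FGF2 value fell among the vehicle values, which was also so for 28.2% of all genes, 14.6% with FGF2 above and 13.6% with FGF2 below. The median log2 fold change, FGF2 over vehicle, was 0.14 over the 10 genes and 0.01 over all genes tested.

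**Figure D1:**
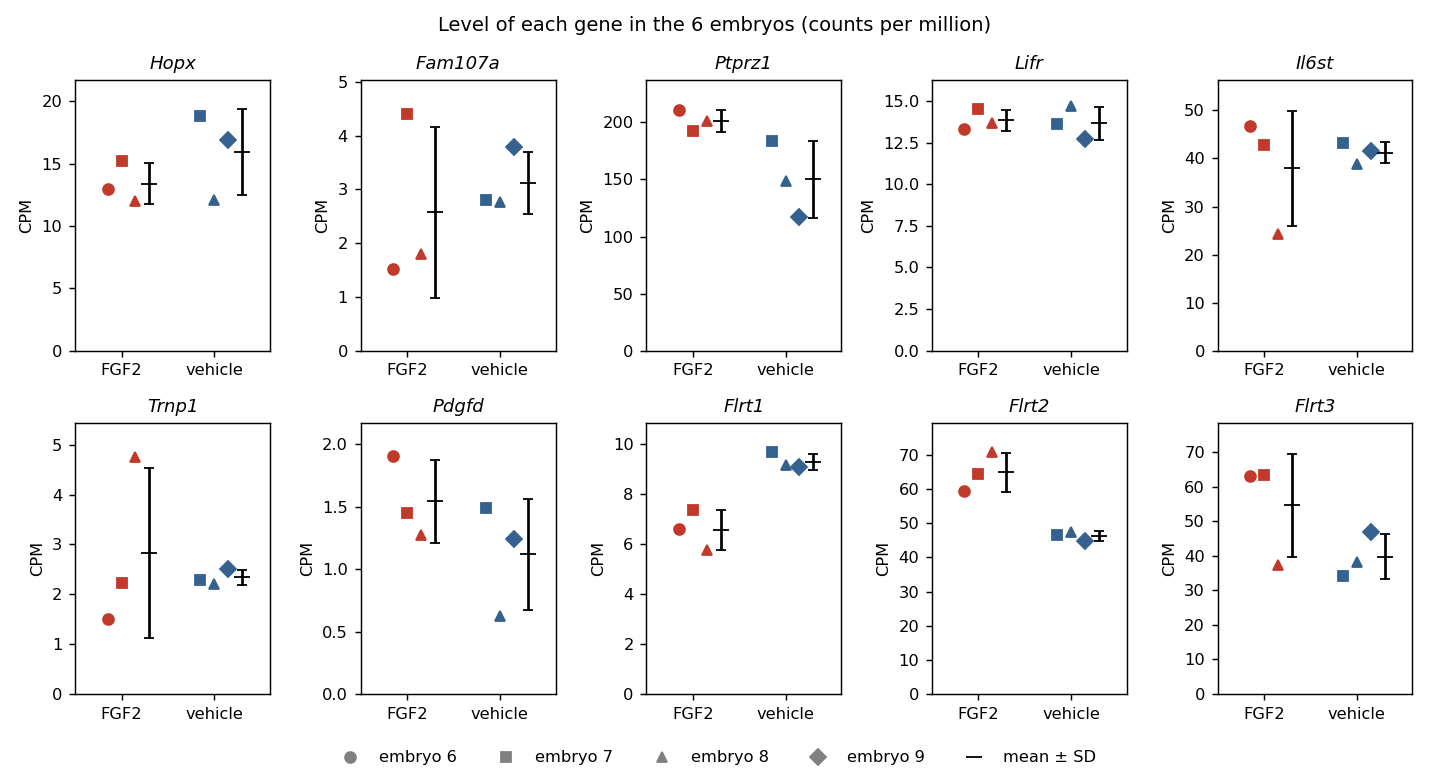
Levels of the 10 genes in CPM (read counts scaled to the size of each library, y axis from 0) in each of the 3 FGF2 and the 3 vehicle embryos, with symbols for the embryo number and the mean ± SD beside each group. For Flrt2 the FGF2 embryos lie between 59.5 and 70.9 CPM, above vehicle embryos between 44.7 and 47.4 CPM, while for Flrt1 they lie below them and for 7 of the 10 genes the groups overlap.

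The start regions of the genes were read for letters bound by factors of the FGF and LIF pathways. Transcription factors of the ETS family are a nuclear endpoint of the FGF and MAP kinase pathway, and the letters CCGGAA were searched on both strands of the 250 bases before each gene start in RefSeq's promoter table (build GRCm38.p6). For 9 of the 10 genes, all but Flrt1, the table held an entry, with 13 starts in all. A match was found at 2 of the 13 starts, those of Flrt2 and Il6st, and at 12% of all 32851 starts. The letters TTCNNNGAA, bound by STAT factors, were found at 0 of the 13 starts and at 7.0% of all starts. The stretches of the only gene that rose and of the other gene with a match follow, in lower case with the matches in capitals (CCGGAA, or TTCCGG on the other strand). Flrt2 is shown for chr12:95691976-95692225 and Il6st for chr13:112463820-112464069, both on the plus strand.
Flrt2 upstream: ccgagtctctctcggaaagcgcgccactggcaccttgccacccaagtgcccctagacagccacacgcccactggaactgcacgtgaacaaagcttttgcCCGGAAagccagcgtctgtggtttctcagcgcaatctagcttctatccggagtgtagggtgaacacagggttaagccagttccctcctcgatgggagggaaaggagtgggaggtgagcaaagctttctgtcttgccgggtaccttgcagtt
Il6st upstream: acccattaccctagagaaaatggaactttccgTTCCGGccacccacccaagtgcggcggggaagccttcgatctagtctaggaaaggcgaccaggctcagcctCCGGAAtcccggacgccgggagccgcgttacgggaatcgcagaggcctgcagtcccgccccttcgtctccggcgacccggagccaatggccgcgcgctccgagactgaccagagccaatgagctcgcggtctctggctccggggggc
The match before Flrt2 began 151 bases upstream of the start, and those before Il6st 218 and 147 bases upstream. Flrt2 rose and Il6st did not pass the test, and a match in these letters is a description of the sequence, not a site shown to be bound.

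Flrt2, on chromosome 12 (96930436 to 97023425 in NCBIM37, the build of the count files, which is used for every gene position below), encodes a ligand of UNC5 receptors, through which FLRT proteins can repel migrating neurons, and of latrophilins, through which they can adhere. Its level was 59.5, 64.5 and 70.9 CPM in FGF2 embryos 6, 7 and 8, against 46.6, 47.4 and 44.7 CPM in vehicle embryos 7, 8 and 9. Every FGF2 embryo was above every vehicle embryo, and the vehicle embryos were close together. The means were 64.9 ± 5.74 CPM with FGF2 and 46.2 ± 1.39 CPM with vehicle (SD, n = 3 each), a 1.40-fold difference or 0.49 ± 0.09 (SE) on the log2 scale, with a 95% interval of 1.22-fold to 1.61-fold that is not adjusted for the number of genes (edgeR adjusted p = 0.0257). No other gene overlaps its span.

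Whether Flrt2 passed depended on which embryos were included, while the size of its change varied little. Leaving out FGF2 7, vehicle 7, vehicle 8 or vehicle 9 gave adjusted p = 0.0746, 0.119, 0.116 and 0.109 in edgeR, with log2 fold changes of 0.49, 0.49, 0.51 and 0.46, while it passed without FGF2 6 (0.55, adjusted p = 0.0295) and without FGF2 8 (0.42, adjusted p = 0.00873). With the presence of Y-linked reads as a covariate, 5 genes in all were called and Flrt2 was not among them (log2 fold change 0.48, edgeR adjusted p = 0.399). Among the 4 embryos with such reads, Flrt2 was at 59.5, 64.5 and 70.9 CPM with FGF2, against 46.6 CPM in vehicle 7. It still passed with the counts of vehicle 9 halved. Over all 19 alternative settings the log2 fold change lay between 0.41 and 0.55 and the adjusted p between 0.00032 and 0.399. In RPKM, reads scaled for the length of a gene model and for depth, which the authors deposited separately, Flrt2 was at 6.87, 8.15 and 7.23 in the FGF2 embryos, against 5.47, 5.2 and 5.36 in the vehicle embryos. The groups were again apart, and limma on log2(RPKM + 1) gave a difference of 0.41 ± 0.08 (SE) that did not pass (adjusted p = 0.057). In that fit 0 of the 8 genes that reached an RPKM of 1 in 3 libraries passed, against 3.23% of all 14222 rows called in either direction and 2.44% called higher. At an unadjusted p under 0.05 the count was 3 of the 8, the same Flrt2, Flrt1 and Ptprz1, against 19.6% of all rows.

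**Figure D2:**
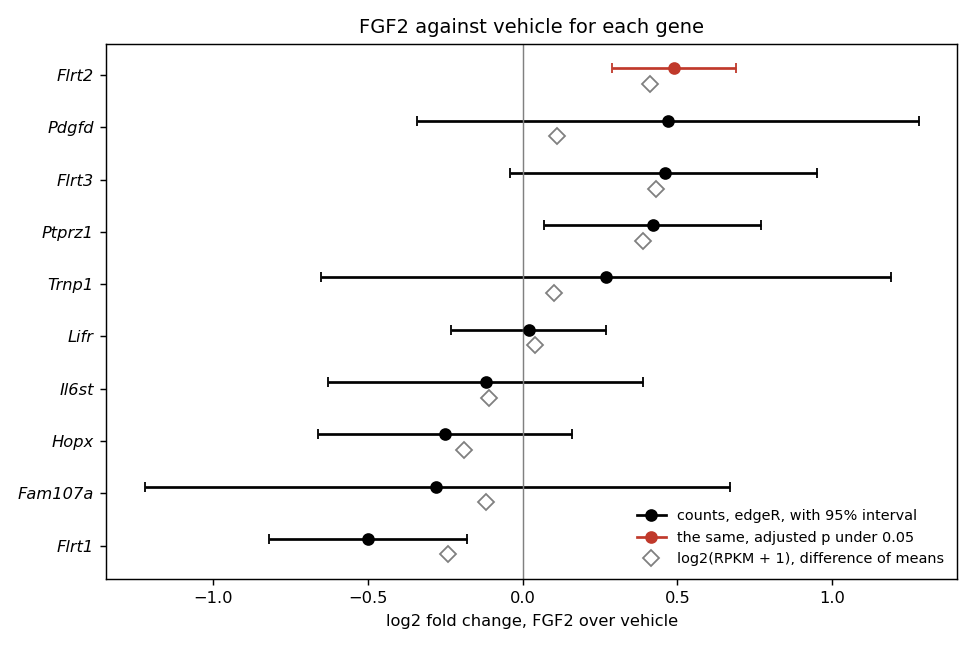
Log2 fold change of each gene, FGF2 over vehicle (x axis), from edgeR on counts with its 95% interval (filled circles, red where the adjusted p is under 0.05) and as the difference of mean log2(RPKM + 1) (open diamonds). Flrt2 has the narrowest interval of those that exclude 0, and the intervals of Trnp1, Fam107a and Pdgfd are the widest.

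Markers of other regions and cell types moved with the same embryos. The summed level of 13 genes of the ventral telencephalon was 606 to 836 CPM with FGF2 and 71.0 to 188 CPM with vehicle, and 10 of the 13 rose. Of 8 choroid plexus genes 7 rose, with sums of 163 to 487 CPM against 2.0 to 4.17 CPM, and of 9 genes of the meninges 2 fell, the collagen genes Col1a1 and Col1a2. The 3 collagens of that list summed to 2034 to 2242 CPM with FGF2 and 3371 to 3867 CPM with vehicle, while its other 6 genes summed to 233 to 332 CPM against 265 to 315 CPM, and the median log2 fold change of the 9 was -0.11. Gsx1, a transcription factor of ventral progenitors, had 255, 148 and 138 reads with FGF2 and 0 in every vehicle embryo. Markers of the labelled tissue were present in every embryo, and of 10 dorsal progenitor genes 3 fell and 7 did not pass. Those that fell were Emx1, Eomes and Pax6. The 10 summed to 2520 to 2980 CPM with FGF2 and 2940 to 3110 CPM with vehicle, which overlap, and their median log2 fold change was -0.14. Vim and Nes, which did not pass, had the highest levels in that sum, with means of 1130 and 410 CPM with FGF2 and 1110 and 464 CPM with vehicle. The sum is therefore weighted toward them and does not follow the 3 genes that fell. The FGF2 embryos were all below the vehicle embryos for 3 of the 10 and all above them for 1. Emx1, which marks the dorsal telencephalon and had the smallest p of the 10, was at 96.0, 96.7 and 109 CPM with FGF2 and at 186, 185 and 182 CPM with vehicle. The part of these differences in the change of Flrt2 was not tested, and the same holds for the other genes below.

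Markers of cells other than those above were read in the same way. Microglial genes summed to 89.1 to 104 CPM with FGF2 and 57.3 to 70.6 CPM with vehicle, and 2 of 7 rose. All 7 were at an unadjusted p under 0.05 in edgeR, against 19.3% of all genes, with a median log2 fold change of 0.92. For 6 of the 7 every FGF2 embryo was above every vehicle embryo, and for 0 below. Genes of the oligodendrocyte lineage summed to 74.2 to 99.4 CPM against 42.4 to 52.3 CPM, and 3 of the 5 tested rose, while Nkx2-2 of that list had 0 reads in every vehicle embryo and in FGF2 7. Of 9 endothelial and mural genes 0 passed in edgeR, 2 of them at an unadjusted p under 0.05, with sums of 275 to 322 CPM against 247 to 281 CPM. Of 8 genes of cortical neurons 0 passed as well, with 4 at an unadjusted p under 0.05, all of them lower. Their median log2 fold change was -0.42. For 5 of the 8 every FGF2 embryo was below every vehicle embryo, and for 0 above, against 13.6% and 14.6% of all genes. Tbr1, with the smallest p, was at 160, 139 and 223 CPM with FGF2 and at 271, 275 and 319 CPM with vehicle. The sums of the FGF2 embryos were spread, at 1470, 1590 and 2560 CPM, against 2270 to 2390 CPM with vehicle. Tubb3 alone was at 657, 672 and 1030 CPM with FGF2 and at 693, 703 and 682 CPM with vehicle.

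The related genes Flrt1 and Flrt3 each lie inside a longer gene, and the counts cover whole spans with introns. The labels do not state whether reads were assigned by strand, and both genes lie on the strand opposite to their hosts. Among 2849 pairs in the files of a gene with reads inside a longer gene on the opposite strand (strands from the GENCODE annotation of GRCm38), the nested gene had more reads than its host in any library in 0 pairs. Its reads were therefore taken as part of the host's count, and reads of the host may in turn be part of the count of the nested gene. The coding parts of the 3 Flrt genes, 2022, 1980 and 1947 bases in 1 exon each (GENCODE annotation of GRCm38), shared 58.6% of aligned bases between Flrt1 and Flrt2, 61.5% between Flrt1 and Flrt3 and 56.9% between Flrt2 and Flrt3. The longest runs that the coding parts of each pair share without a difference are given. The other parts of the spans were not compared, and whether reads of 1 of these genes were placed on another was not tested.
Flrt1 and Flrt2: cacctggacgacaactcc
Flrt1 and Flrt3: ctgggccatagccc
Flrt2 and Flrt3: aaagacaactccatc
These runs are 18, 14 and 15 bases long.

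Flrt1, on chromosome 19 (7166504 to 7180219), was the gene of the 10 with the lowest fold change. Its level was 6.62, 7.37 and 5.75 CPM in FGF2 embryos, against 9.68, 9.17 and 9.08 CPM in vehicle embryos. Every FGF2 embryo was below every vehicle embryo. The difference of -0.50 ± 0.14 (SE) on the log2 scale, a ratio of 0.565 to 0.885 by its 95% interval, did not pass (edgeR adjusted p = 0.105). Flrt1 was called lower under 2 of 18 alternative settings, DESeq2 (adjusted p = 0.0137) and voom with quality weights (adjusted p = 0.0462), with a range over all 18 of 0.0137 to 0.541. Its host Macrod1 encodes an enzyme that acts on ADP-ribose. With the reads of Flrt1 taken away, Macrod1 was at 29.4, 29.1 and 37.3 CPM with FGF2 and at 36.7, 44.8 and 37.3 CPM with vehicle, and the whole span had a log2 fold change of -0.34 ± 0.11 (SE, edgeR adjusted p = 0.13). In RPKM, which follow a gene model, Flrt1 was at 1.18, 1.27 and 0.986 with FGF2 and at 1.58, 1.49 and 1.51 with vehicle, again without overlap (limma adjusted p = 0.173).

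Flrt3, on chromosome 2 (140476650 to 140497205), was split among the FGF2 embryos. It stood at 63.1 and 63.3 CPM in FGF2 6 and 7 and at 37.4 CPM in FGF2 8, against 34.2, 38.1 and 47.0 CPM in the vehicle embryos. FGF2 8 therefore lay among the vehicle embryos and the other FGF2 embryos above them. A log2 fold change of 0.46 ± 0.21 (SE), with a 95% interval of 0.974-fold to 1.94-fold, did not pass (edgeR adjusted p = 0.296). Without FGF2 8 it was 0.67 and passed (adjusted p = 0.024), as it did with voom quality weights (0.68, adjusted p = 0.0243), within a range of 0.024 to 0.643 over 18 alternatives. Its host Macrod2, which encodes another enzyme of that family, rose over the whole span that includes Flrt3 (0.37 ± 0.08 (SE) on the log2 scale, edgeR adjusted p = 0.0486). With the Flrt3 reads taken away, Macrod2 was at 81.5, 71.8 and 120 CPM with FGF2 and at 76.8, 72.1 and 68.9 CPM with vehicle, so FGF2 8 was the highest for the remainder of the host and the lowest FGF2 embryo for Flrt3. The Flrt3 count equalled 43.6%, 46.9% and 23.7% of the host's count in the FGF2 embryos and 30.8%, 34.6% and 40.5% in the vehicle embryos. A second identifier for Flrt3 had the same counts and was counted once, and the RPKM files hold 2 rows under its symbol without naming their gene models. The higher row was at 14.0, 14.0 and 7.97 with FGF2 and at 7.42, 8.01 and 9.89 with vehicle, a difference of 0.43 ± 0.22 (SE) in log2(RPKM + 1). The lower row was at 2.89, 2.77 and 0.639 with FGF2 and at 1.24, 1.95 and 2.24 with vehicle, a difference of 0.05 ± 0.34 (SE), and neither passed (limma adjusted p = 0.325 and 0.95).

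**Figure D3:**
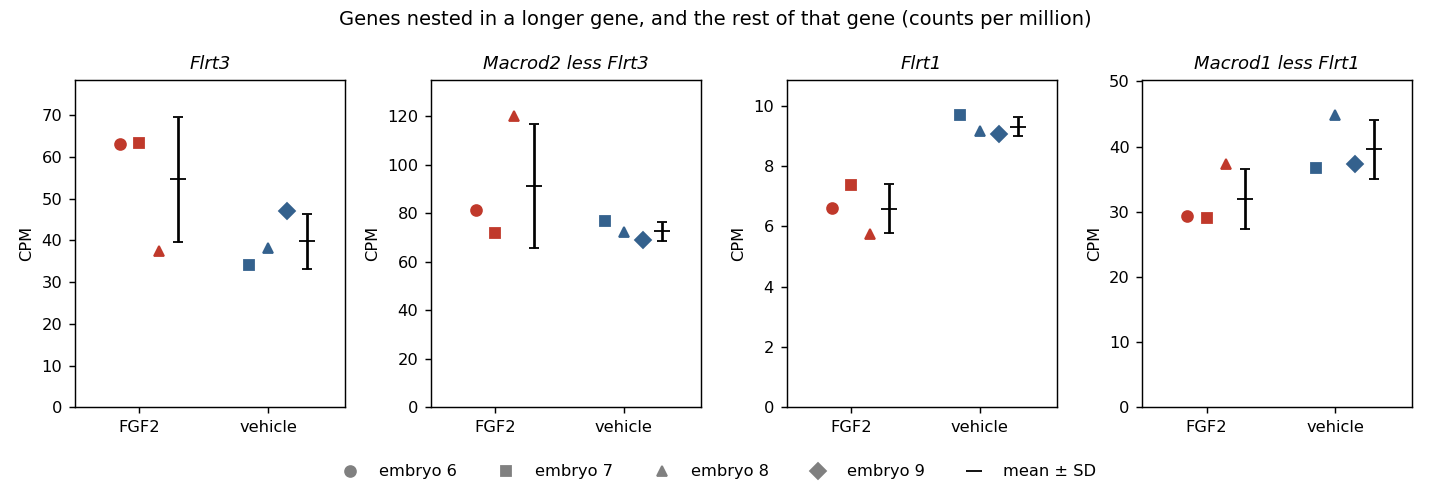
CPM (y axis from 0) of Flrt3 and Flrt1 and of their host genes Macrod2 and Macrod1 after the reads of the nested gene were subtracted, in each FGF2 and vehicle embryo, with mean ± SD. For the pair on chromosome 2, FGF2 8 is the lowest FGF2 embryo for Flrt3 at 37.4 CPM and the highest for the remainder of Macrod2 at 120 CPM.

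FLRT proteins act through binding partners, and 1 of the 10 partner genes listed rose and 0 fell, with a median log2 fold change of 0.12. At an unadjusted p under 0.05 in edgeR there were 4, against 19.3% of all genes. Unc5c, a receptor for netrin and FLRT ligands that mediates repulsion, was at 23.7, 16.6 and 18.3 CPM with FGF2 and at 12.5, 11.1 and 12 CPM with vehicle. The groups were apart, and it rose by 0.72 ± 0.15 (SE) on the log2 scale (edgeR adjusted p = 0.0429), although its span overlaps 1 other gene whose reads cannot be told apart from its own. The other UNC5 receptors did not pass, with log2 fold changes of 0.58 ± 0.31 for Unc5a, 0.47 ± 0.11 for Unc5b and -0.33 ± 0.58 for Unc5d (SE, edgeR adjusted p = 0.362, 0.0731 and 0.799). Unc5d, a marker of migrating cortical neurons, was high in FGF2 8 like the neuronal sums, at 9.08, 12.5 and 42.8 CPM with FGF2 and at 26.2, 33.1 and 21.2 CPM with vehicle. For the latrophilins Lphn1, Lphn2 and Lphn3 the log2 fold changes were -0.20 ± 0.12, -0.31 ± 0.08 and 0.27 ± 0.18 (SE, edgeR adjusted p = 0.382, 0.0789 and 0.458), and none passed. Without FGF2 8, 2 partners were called higher and 3 lower. Those higher were Unc5c and Unc5b (log2 fold changes of 0.77 and 0.53, edgeR adjusted p = 0.0231 and 0.0205), and those lower were Lphn1, Lphn2 and Unc5d (-0.33, -0.28 and -1.32, adjusted p = 0.0236, 0.0362 and 0.0262). With voom quality weights the same 2 and 3 were called, and DESeq2 called Unc5b and Unc5c higher and Lphn2 lower. When any other embryo was left out, with the presence of Y-linked reads as a covariate and in the 3 RPKM fits, 0 partners were called in either direction.

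Among the markers of outer radial glia, the homeodomain-like protein gene Hopx lies on chromosome 5 (77515468 to 77544186). Its level was 13.0, 15.2 and 12 CPM in FGF2 embryos, against 18.8, 12.1 and 16.9 CPM in vehicle embryos. The groups overlapped, since vehicle 8 was within the FGF2 range. The log2 fold change of -0.25 ± 0.18 (SE) had a 95% interval of 0.633-fold to 1.12-fold and did not pass (edgeR adjusted p = 0.486). A small RNA gene and the transcript Gm15830 lie within its span, with 41 to 95 and 161 to 307 reads with FGF2 and 56 to 84 and 189 to 273 reads with vehicle, which count for Hopx too.

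Fam107a, on chromosome 14 (9128788 to 9150537), encodes a protein that binds the actin cytoskeleton. It was at 1.52, 4.41 and 1.79 CPM with FGF2, against 2.80, 2.77 and 3.78 CPM with vehicle. FGF2 7 was the highest of all 6 and FGF2 6 the lowest, so the vehicle embryos lay inside the range of the FGF2 embryos. Its log2 fold change was -0.28 ± 0.41 (SE, edgeR adjusted p = 0.754), with a 95% interval of 0.430-fold to 1.59-fold, from 115 to 313 reads with FGF2 and 171 to 238 reads with vehicle. It was -0.92 without FGF2 7 (adjusted p = 0.149) and 0.00034 without FGF2 6 (adjusted p = 1).

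Trnp1, on chromosome 4 (133047015 to 133054465), was high in a single embryo. Its level was 1.5, 2.23 and 4.76 CPM with FGF2, against 2.29, 2.21 and 2.51 CPM with vehicle. FGF2 8 was above all vehicle embryos and FGF2 6 below all of them. Its log2 fold change was 0.27 ± 0.40 (SE, edgeR adjusted p = 0.753), with a 95% interval of 0.637-fold to 2.29-fold, and it turned to -0.33 without FGF2 8 (adjusted p = 0.465).

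Ptprz1, on chromosome 6 (22825502 to 23002916), encodes a receptor tyrosine phosphatase of radial glia that binds pleiotrophin and contactin 1. It was at 211, 192 and 201 CPM in the FGF2 embryos, against 184, 149 and 117 CPM in the vehicle embryos. The groups did not overlap, with 192 CPM in the lowest FGF2 embryo and 184 CPM in the highest vehicle embryo. The means were 201 ± 9.74 CPM with FGF2 and 150 ± 33.1 CPM with vehicle (SD, n = 3 each), and the spread of the vehicle embryos was the wider. The log2 fold change of 0.42 ± 0.15 (SE), with a 95% interval of 1.05-fold to 1.71-fold, did not pass (edgeR adjusted p = 0.184), nor did it under any of 19 alternatives, whose adjusted p lay between 0.108 and 0.893. It was 0.27 when vehicle 9 was left out and 0.13 with the presence of Y-linked reads as a covariate (adjusted p = 0.328 and 0.893), and among the 4 embryos with such reads the values were 211, 192 and 201 CPM with FGF2 against 184 CPM in vehicle 7.

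Of 7 genes that act with PTPRZ1, 0 passed in edgeR, with 3 at an unadjusted p under 0.05, against 19.3% of all genes. The median log2 fold change was -0.05. DESeq2 called Cntn1 higher and 0 lower. Without FGF2 8, edgeR called Mdk higher (0.25 on the log2 scale, adjusted p = 0.0454) and the neural adhesion genes Ncam1 and Nrcam lower, and with voom quality weights Mdk was called higher and Nrcam lower. Cntn1, the contactin that binds PTPRZ1 on neighbouring cells, had the smallest p and was at 5.52, 5.82 and 13.9 CPM with FGF2 and at 2.65, 4.31 and 3.90 CPM with vehicle. All FGF2 embryos were above all vehicle embryos, with FGF2 8 far above the rest, and the log2 fold change of 1.21 ± 0.39 (SE) did not pass (edgeR adjusted p = 0.141), nor did the 0.65 ± 0.22 (SE) without FGF2 8 (adjusted p = 0.122). The secreted ligands pleiotrophin (Ptn) and midkine (Mdk) had log2 fold changes of -0.05 ± 0.10 and 0.23 ± 0.08 (SE, edgeR adjusted p = 0.832 and 0.17).

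Lifr and Il6st, the receptor pair of LIF, were both detected and neither passed. Lifr, on chromosome 15 (7079559 to 7147489), was at 13.3, 14.5 and 13.7 CPM with FGF2, against 13.6, 14.7 and 12.7 CPM with vehicle. The groups overlapped almost fully, with a log2 fold change of 0.02 ± 0.11 (SE, edgeR adjusted p = 0.947) and a 95% interval of 0.852-fold to 1.20-fold. Il6st, on chromosome 13 (113265216 to 113297068), was at 46.8, 42.8 and 24.3 CPM with FGF2, against 43.2, 38.9 and 41.6 CPM with vehicle. FGF2 8 was the lowest of all 6 embryos, and the other FGF2 embryos lay within or just above the vehicle range. The log2 fold change was -0.12 ± 0.22 (SE, edgeR adjusted p = 0.805) with a 95% interval of 0.647-fold to 1.31-fold, and it was 0.12 without FGF2 8 (adjusted p = 0.397).

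**Figure D4:**
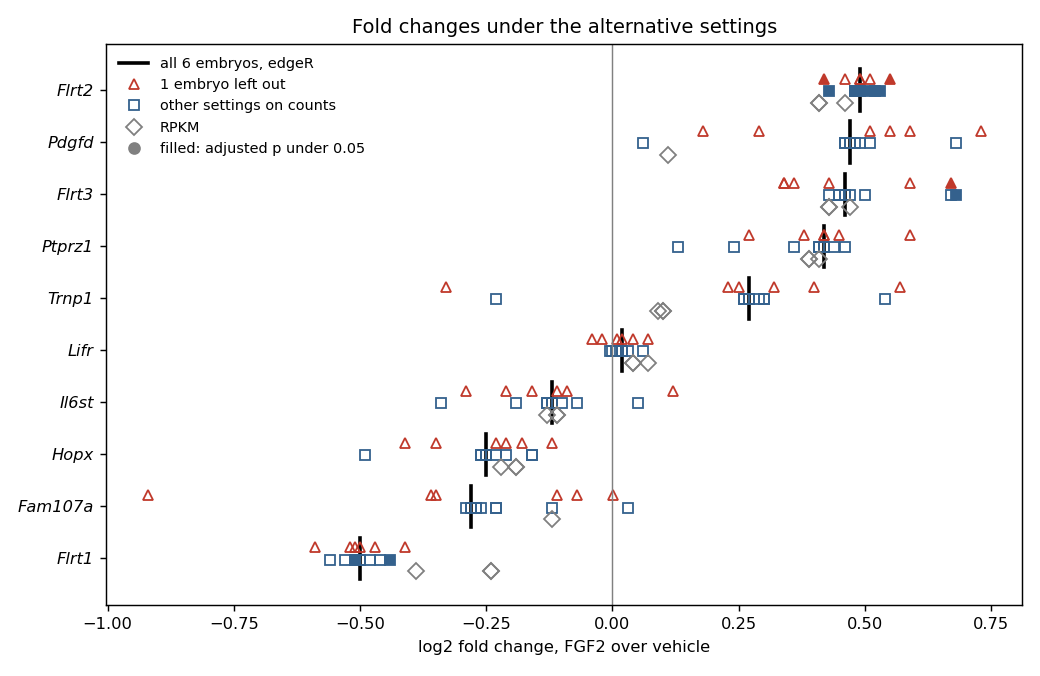
Log2 fold change of each gene, FGF2 over vehicle (x axis), under the 19 alternative settings, as triangles for 1 embryo left out, squares for other settings on counts and diamonds for RPKM, filled where the adjusted p is under 0.05, with the value from all 6 embryos as a bar. Flrt2 stays between 0.41 and 0.55, while Trnp1, Lifr, Il6st and Fam107a have values on both sides of 0.

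Along the LIF and gp130 pathway 15 of 18 other genes were tested and 0 passed in edgeR. At an unadjusted p under 0.05 there were 2, against 19.3% of all genes, and the median log2 fold change was -0.02. The ligand genes Lif, Osm and Il6 had too few reads to be tested. Cntfr, the receptor subunit for ciliary neurotrophic factor, had the smallest p, at 204, 163 and 208 CPM with FGF2 and 263, 263 and 237 CPM with vehicle. Its FGF2 embryos were all below its vehicle embryos, and the log2 fold change of -0.41 ± 0.11 (SE) did not pass (edgeR adjusted p = 0.0943). It was called lower without FGF2 8 (-0.47, adjusted p = 0.0307), with voom quality weights and with DESeq2. Stat3, the main transducer of the pathway, and Socs3, its feedback inhibitor, had log2 fold changes of -0.13 ± 0.10 and 0.10 ± 0.15 (SE, edgeR adjusted p = 0.493 and 0.774).

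Pdgfd, on chromosome 9 (6168612 to 6378843), encodes a growth factor that is cut by proteases before it binds the receptor PDGFRB. Few reads fell on it, and it was at 1.91, 1.45 and 1.27 CPM with FGF2, against 1.49, 0.628 and 1.24 CPM with vehicle. The groups overlapped, and only vehicle 8 lay apart, with 42 reads against 78 to 161 in the other libraries. The log2 fold change of 0.47 ± 0.35 (SE) had a 95% interval of 0.791-fold to 2.43-fold and did not pass (edgeR adjusted p = 0.505). It was 0.18 without vehicle 8 (adjusted p = 0.835). In FGF2 7, 103 reads are listed as covering 209370 of the 210232 bases of the span, which shows that the gaps of spliced reads were counted as covered and that coverage here is no measure of reads in introns. Of 7 other genes of the PDGF pathway 0 passed in edgeR or DESeq2, with a median log2 fold change of 0.20. At an unadjusted p under 0.05 in edgeR there were 2, against 19.3% of all genes. Pdgfc, another ligand, had the smallest p, at 21.2, 19.9 and 15.6 CPM with FGF2 and at 25.7, 24.7 and 22.0 CPM with vehicle (log2 fold change -0.35 ± 0.13 (SE), edgeR adjusted p = 0.21), and the receptors Pdgfra and Pdgfrb had log2 fold changes of 0.20 ± 0.22 and 0.22 ± 0.09 (SE, edgeR adjusted p = 0.664 and 0.236).

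Per length of gene model, the order of the genes was similar in the 2 groups. Ptprz1 was highest, at 18.1 ± 1.57 RPKM with FGF2 and 13.7 ± 2.71 RPKM with vehicle (SD, n = 3 each), and apart from the next gene in both groups. Flrt3 and Il6st followed, at 12 ± 3.49 and 7.69 ± 2.55 RPKM with FGF2 and at 8.44 ± 1.29 and 8.09 ± 0.508 RPKM with vehicle, and their ranges overlapped in both groups. Flrt2 came next with FGF2, at 7.42 ± 0.662 RPKM, above Hopx at 5.55 ± 0.849 RPKM and with no overlap between them. With vehicle Flrt2 was at 5.34 ± 0.138 RPKM, below Hopx at 6.55 ± 1.54 RPKM, and the ranges overlapped. Trnp1, Lifr and Flrt1 lay between 1.14 and 1.41 RPKM with FGF2 and between 1.15 and 1.53 RPKM with vehicle. Fam107a and Pdgfd were lowest, at 0.696 ± 0.460 and 0.276 ± 0.107 RPKM with FGF2 and at 0.804 ± 0.152 and 0.183 ± 0.108 RPKM with vehicle.

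Genes whose levels followed that of Flrt2 most closely were Nrsn2, a membrane protein of neuronal vesicles, Abat, the enzyme that breaks down the transmitter GABA, and Edn1, the peptide endothelin 1. Likeness was measured by the Pearson correlation of log2(CPM + 1) over the 6 embryos among 13165 genes and was 0.9977, 0.9967 and 0.9959, and 24 genes lay within 0.01 of the third. The 6 points fall into the 2 groups and the genes share the same libraries, so the coefficients are a description. Nrsn2 was at 5.18, 5.86 and 7.71 CPM with FGF2 and at 2.24, 2.47 and 1.97 CPM with vehicle. Abat was at 31.3, 38.1 and 43.4 CPM with FGF2, against 20.2, 20.7 and 17.3 CPM with vehicle, and like Flrt2 and Nrsn2 it was highest in FGF2 8. Nrsn2 and Abat rose (log2 fold changes of 1.49 and 0.96, edgeR adjusted p = 0.0107 and 0.012). Edn1, at 1.24, 1.40 and 1.54 CPM with FGF2 and at 0.785, 0.868 and 0.794 CPM with vehicle, did not pass (adjusted p = 0.121).

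Further genes of outer radial glia and of folding were read from lists. Of 12 other outer radial glia genes 0 passed in edgeR, with 3 at an unadjusted p under 0.05, against 19.3% of all genes. DESeq2 called 3 of the 12 higher and 0 lower. Their median log2 fold change was 0.28. Bmp7, a secreted growth factor, had the smallest p, at 37.2, 35.3 and 27.9 CPM with FGF2 and at 23.2, 24.7 and 24.5 CPM with vehicle. The groups were apart, and the log2 fold change of 0.47 ± 0.12 (SE) did not pass (edgeR adjusted p = 0.0818), while without FGF2 8 it was 0.59 and passed (adjusted p = 0.00387). Moxd1, a monooxygenase-like protein, had the highest fold change of the list, at 1.59, 4.33 and 3.53 CPM with FGF2 and at 1.47, 0.718 and 0.794 CPM with vehicle (log2 fold change 1.66 ± 0.43 (SE), edgeR adjusted p = 0.0888), and was called without FGF2 6.

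Of 12 genes tied to folding or to basal progenitors by experiments in animals, 1 rose, 1 fell and 10 did not pass, with a median log2 fold change of -0.18. Pax6, a transcription factor of dorsal progenitors, was at 198, 182 and 166 CPM with FGF2 and at 274, 259 and 245 CPM with vehicle. It fell by 0.51 on the log2 scale (SE 0.09, edgeR adjusted p = 0.029), and the number of these genes called lower was 0 when FGF2 7, vehicle 7, vehicle 8 or vehicle 9 was left out. Without FGF2 8, 2 were called higher, Shh and the cyclin gene Ccnd1, and 2 lower, Pax6 and the transcription factor gene Insm1. Shh, a secreted signal of the ventral forebrain, rose, with 237, 197 and 111 reads with FGF2 against 0, 0 and 2 reads with vehicle (edgeR adjusted p = 0.00182). Both of these calls were lost with the presence of Y-linked reads as a covariate, and the spans of Pax6 and Shh each overlap 2 other genes. Of 18 genes listed for human malformations of the cortex 0 passed in edgeR, with a median log2 fold change of -0.07. At an unadjusted p under 0.05 there were 5, all of them lower, against 19.3% of all genes in either direction. For 6 of the 18 every FGF2 embryo was below every vehicle embryo, and for 0 above, against 13.6% and 14.6% of all genes. DESeq2 called Gpr56 and Dync1h1 lower and 0 higher. Without FGF2 8, Gpr56 (-0.38, adjusted p = 0.0236) and Reln were called lower. Gpr56, the adhesion receptor now named Adgrg1 whose loss gives a finely folded cortex in humans, had the smallest p, at 219, 227 and 231 CPM with FGF2 and at 295, 310 and 265 CPM with vehicle (log2 fold change -0.36 ± 0.09 (SE), edgeR adjusted p = 0.0673).

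**Figure D5:**
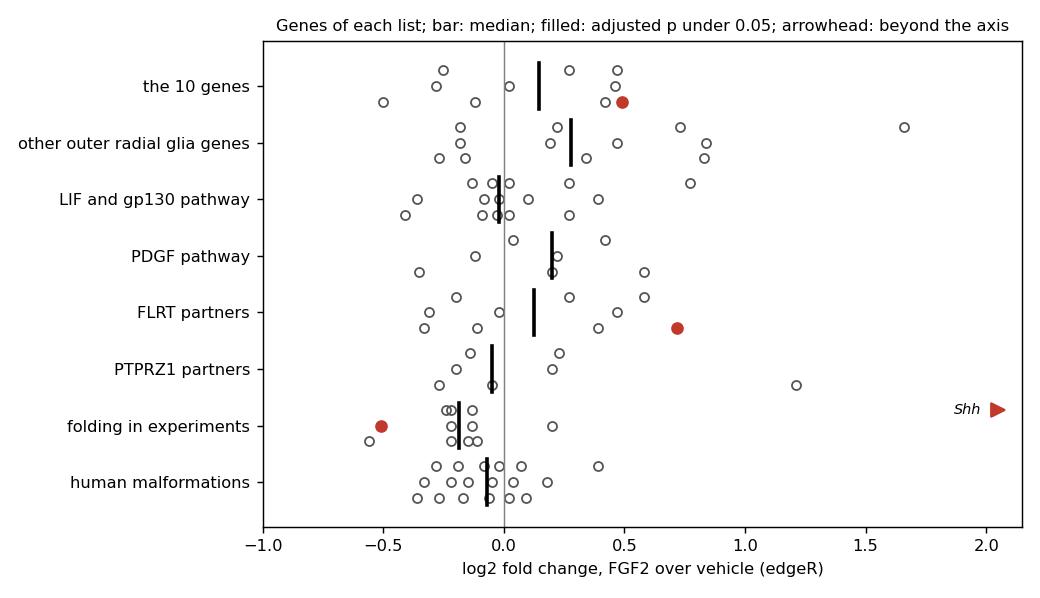
Log2 fold change, FGF2 over vehicle, by edgeR (x axis) of each tested gene of the 10 and of the 7 related lists (rows), with the median of a list as a bar and genes with an adjusted p under 0.05 filled in red. The filled genes are Flrt2, Unc5c, Pax6 and, beyond the axis, Shh.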

How the data were processed

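The RNA came from formalin-fixed coronal cryosections, was cleared of DNA and was sequenced as paired-end Illumina libraries, per the labels' protocols. The submitters' processing notes name bedtools 2.12.0, Bowtie2 2.1.0.0, TopHat2 2.0.9 and CASAVA 1.8, with the build NCBIM37 (mm9). What each tool did, what made the RPKM values and whether strand was used are not given in these sources. The authors deposited whole read counts per gene span, introns included, with the bases covered, the span length and the covered fraction of the span. They also deposited RPKM per gene symbol.

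The counts were tested with edgeR 4.0.16 in R 4.3.3 (filterByExpr, TMM, robust glmQLFit, glmQLFTest) over 6 libraries without a covariate, with Benjamini-Hochberg adjustment over 21983 genes. CPM use TMM library sizes, and 95% intervals are per gene. RPKM were tested with limma 3.58.1 on log2(RPKM + 1), which understates changes of low values, and the alternatives were DESeq2 1.42.0, voom with quality weights, RLE factors, library totals, other minimums, each embryo left out, the embryo number as a block, a Y-linked covariate, vehicle 9 halved and genes that overlap no other. An exact permutation of 3 against 3 embryos cannot give p below 0.1. The code was checked on simulated counts. Nothing in the labels says that embryos came from separate litters, so p-values measure the spread between these embryos.

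The 10 genes and all lists were chosen with earlier results of these data known. The rule for named genes takes all 10, from each list up to 4 called genes with the smallest p, or the 1 smallest where none was called, and 3 genes most like each called gene. For the lists of cell types, not every gene that the rule takes is named. Unc5a, Unc5b, Unc5d, Lphn1, Lphn2, Lphn3, Ptn, Mdk, Lif, Osm, Il6, Stat3, Socs3, Pdgfra, Pdgfrb, Moxd1, Ncam1, Nrcam, Ccnd1, Insm1, Dync1h1, Reln, Vim, Nes, the collagens and the host genes were chosen after their values were seen.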

Additional observations from a re-analysis of the deposited data

How the results depend on the processing

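Over 19 alternatives Flrt2 kept its direction with log2 fold changes of 0.41 to 0.55. The number of the 10 genes called higher was 1 with all embryos and 0 to 2 with 1 embryo left out. It was 0 with the presence of Y-linked reads as a covariate and in the 3 limma fits on RPKM (log2(RPKM + 1) and log2(RPKM + 0.1) for rows of at least 1 RPKM in 3 libraries, and log2(RPKM + 1) without that minimum), where Flrt2 had adjusted p = 0.399, 0.057, 0.0606 and 0.0592. It was 2 with voom quality weights, which added Flrt3. The number called lower was 0 with all embryos, 0 whichever embryo was left out, and 1 with voom quality weights and with DESeq2, in both cases Flrt1. The labels do not say whether equal embryo numbers pair the embryos. Deviations of same-numbered embryos correlated at -0.0486 and -0.0163, which cannot decide whether such embryos share a litter. Only the numbers 7 and 8 occur in both groups, so a fit with the number as a replicate block rested on those embryos. In that fit 0 of the 10 genes were called (Flrt2 edgeR adjusted p = 0.109), Unc5c and Pax6 were not called, and Cntn1 and Moxd1 were called higher. Among uncalled genes the direction reversed for Trnp1 (-0.33 to 0.57 with 1 embryo left out, the lowest without FGF2 8, -0.23 with voom weights), Fam107a (-0.92 to 0.00034 with 1 embryo left out, the highest without FGF2 6, 0.03 with the block), Lifr (-0.04 to 0.07 with 1 embryo left out, -0.02 without FGF2 7, -0.04 without vehicle 9, -0.0055 with the block, -0.00069 with voom weights) and Il6st (-0.29 to 0.12 with 1 embryo left out, the highest without FGF2 8, 0.05 with voom weights), and the cause was not tested. Over all genes, 590 higher and 209 lower calls became 964 and 979 without FGF2 8, 1221 and 927 with voom weights, 1359 and 706 with DESeq2, 4 and 1 with the Y-linked covariate, 181 to 964 and 37 to 979 with 1 embryo left out, 326 to 347 and 83 to 113 in the RPKM fits, and 344 higher among genes that overlap no other span. The share of calls that were higher was 73.8% with all embryos, 49.6% without FGF2 8 and 56.8% with voom weights. Flrt1, Flrt3, Hopx and Pdgfd gave no value among genes that overlap no other span, nor did Fam107a and Pdgfd among rows of at least 1 RPKM. Reads were fewest for Pdgfd, Trnp1 and Fam107a, at 42 to 313 per library, and their wide intervals were not split into counting error and spread between embryos.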
